A study of Mus musculus with 8 samples.

Results

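Selp, Clu, Aldh1a1, Neo1, Ehd3 and Jam2, genes often higher in aged blood stem cells, were followed here at the level of chromatin accessibility. Their loci were taken as fixed windows of the mouse genome (build mm9), and every deposited peak lying fully inside a window was a member. There were 58 such peaks among 126871 in all: 10 at Selp, 7 at Clu, 7 at Aldh1a1, 15 at Neo1, 7 at Ehd3 and 12 at Jam2. The windows were set by position and not by any measured value, although the genes were picked with earlier results of these data known. Peaks are numbered within a locus by increasing position.

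The assay was bulk ATAC-seq, in which a transposase cuts open chromatin and leaves adapters there, and the reads counted over a region reflect how open it is. Haematopoietic stem cells (HSCs) were sorted from the bone marrow of C57BL/6 mice as LSK CD150+ CD48- cells, a gate for lineage-negative, Sca-1 and Kit positive cells with a stem cell pattern of SLAM markers. The study compared 4 libraries from young with 4 from old mice, to find how accessibility differs with age. The sources used here give no ages, sex or pooling of animals. They also do not say whether each replicate is a different mouse, and the p-values then cover only variation among the libraries, possibly technical. In bulk samples, a change in the share of cells that are open at a site cannot be told apart from a change in every cell. The marker loci of the gate were not analysed here, since no mm9 annotation was used.

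HSCs of old mice are known for greater number, a bias towards platelet and myeloid output and weaker engraftment. Several genes whose transcripts rise with age in these cells encode surface or adhesion proteins: Selp encodes P-selectin, an adhesion receptor of platelets and endothelium, Jam2 a junctional adhesion molecule, and Neo1 neogenin, a receptor for netrins and repulsive guidance molecules. Clu encodes clusterin, a secreted chaperone, Aldh1a1 a retinaldehyde dehydrogenase that makes retinoic acid, and Ehd3 a protein of endosomal recycling. An open promoter or enhancer permits transcription but does not measure it.

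Which gene a member peak belongs to was not determined, since peaks are in mm9 and the RefSeq gene table is in GRCm38.p6. By the order of protein-coding genes in that table, Clu lies between Scara3 and Gulo, Aldh1a1 between Anxa1 and Aldh1a7, Neo1 between Hcn4 and Adpgk, Ehd3 between Galnt14 and Xdh, and Jam2 between Mrpl39 and Atp5j. A peak near a window's edge may therefore lie at a neighbouring gene. RefSeq upstream sequences were matched for Selp, Aldh1a1, Neo1 and Ehd3. The source used here held none for Clu or Jam2. The sequences shown set Neo1 and Ehd3, where the summed locus and single peaks rose, beside Aldh1a1, where the sum alone rose. Selp, where neither passed the test, is shown as well. Each sequence is the 250 bases before a RefSeq start, 5′ to 3′ on the gene's strand, and capitals mark matches to the motifs searched.
Neo1 (GRCm38.p6, chr9:59036442-59036691, minus strand): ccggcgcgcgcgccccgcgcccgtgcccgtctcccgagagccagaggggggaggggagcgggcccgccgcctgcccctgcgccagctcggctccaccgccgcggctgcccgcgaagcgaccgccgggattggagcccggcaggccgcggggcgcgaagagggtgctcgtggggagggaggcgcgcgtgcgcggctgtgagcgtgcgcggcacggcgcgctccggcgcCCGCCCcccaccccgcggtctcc
Ehd3 (GRCm38.p6, chr17:73804591-73804840, plus strand): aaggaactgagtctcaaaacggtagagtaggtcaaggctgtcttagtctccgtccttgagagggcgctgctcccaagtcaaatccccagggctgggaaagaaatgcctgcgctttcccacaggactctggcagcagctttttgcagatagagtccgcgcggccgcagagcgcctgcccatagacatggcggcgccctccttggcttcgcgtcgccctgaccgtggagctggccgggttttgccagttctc
Aldh1a1 (GRCm38.p6, chr19:20601718-20601967, plus strand): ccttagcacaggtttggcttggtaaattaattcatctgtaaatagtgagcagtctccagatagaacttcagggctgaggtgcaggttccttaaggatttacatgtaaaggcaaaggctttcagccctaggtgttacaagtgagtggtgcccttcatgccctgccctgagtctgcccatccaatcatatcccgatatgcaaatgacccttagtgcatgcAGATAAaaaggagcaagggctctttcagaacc
Selp (GRCm38.p6, chr1:164115014-164115263, plus strand): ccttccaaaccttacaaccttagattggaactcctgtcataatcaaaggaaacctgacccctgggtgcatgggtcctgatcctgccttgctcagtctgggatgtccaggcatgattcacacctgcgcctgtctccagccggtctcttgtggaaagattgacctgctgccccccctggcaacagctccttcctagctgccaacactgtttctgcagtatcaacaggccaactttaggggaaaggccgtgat

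The motifs searched on both strands were AGATAA for the GATA factors of blood cells, CCGGAA for ETS factors, TGTGGT for RUNX factors and CAGCTG as an E-box. TGACTCA stood for AP-1 (its reverse complement TGAGTCA is the same site), TGACGTCA for the cyclic AMP response element and GGGCGG for the GC box. The Neo1 window held 1 GC box, 23 to 18 bases before the start, on the strand opposite to the one printed, which reads CCGCCC there, a motif found in 32.7% of 32851 upstream windows of this length. The Aldh1a1 window printed held 1 GATA match, 32 to 27 bases before the start (in 9.99% of windows). A window before another Aldh1a1 start held 1 AP-1 match, 57 to 51 bases before it (in 4.46%). The Ehd3 and Selp windows held none of these letters. The Neo1 window was 83.2% G and C, against 60.0% at Ehd3, 53.6% at Selp and 46.4% at Aldh1a1. Whether these sequences lie under a member peak was not determined.

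Totals ran from 4200905 to 5129684 counts per library. Values are given as CPM, counts scaled to a common library size after TMM normalization. Old replicate 4 stood apart: across tested peaks its mean correlation with old replicates 1 to 3 was 0.930 and that with the young libraries 0.921. Among old replicates 1 to 3 these means ran from 0.950 to 0.953 within the old group and from 0.864 to 0.878 with the young group. Calls at member peaks and summed loci that change without it are given with and without it. It was the lowest old library at 5 of the 9 member peaks that changed, and young replicate 2 was the highest young library at 5 of them.

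In old HSCs, 9 member peaks rose and 0 fell, out of 35 that passed the count filter. Ehd3 peak 1, among the 9, passed the filter through the old libraries alone and could be called in no other direction, which leaves 8 without it. The 9 lay at 4 of the 6 loci: 3 at Clu and 2 each at Neo1, Ehd3 and Jam2, with none at Selp or Aldh1a1. A peak was called at an adjusted p below 0.05 (edgeR quasi-likelihood test, Benjamini-Hochberg over all 73164 tested peaks). Across all tested peaks 20.5% were called in either direction, 10.0% higher and 10.4% lower. At an unadjusted p below 0.05, 12 member peaks were higher and 1 was lower. The share of all peaks at that threshold was not computed, so these counts are a description and not a result about the members. DESeq2 called 8 members higher and 0 lower, against 4993 and 5215 of all 73164 tested peaks. For limma voom these were 9 and 0 members, against 7190 and 7842 of all tested peaks. Without old replicate 4, calls over all peaks also rose, to 10988 higher and 11693 lower of 75446 tested, and 10 member peaks were higher and 3 lower, with Selp peak 6, Clu peak 4 and Neo1 peak 11 now called lower.

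Apart from Ehd3 peak 1, the size of the calls ran from 0.33 to 1.43 on the log2 scale, old minus young. The median log2 fold change of the 35 tested members was 0.31, against 0.01 for all tested peaks, and 29 were positive and 6 negative. The other 23 members were too weak to be tested. Among all 58, 41 had a higher mean and 17 a lower mean in old libraries. With no count filter, the median log2 fold change of all 126871 peaks was 0.0072. Peaks of a locus are neighbours measured in the same libraries, so these counts are not of independent values. The 4 old libraries lay above the 4 young at 10 of the 58 and below them at 4, where 8.28% of all deposited peaks lay above and 9.93% below. Called members had a median width of 867 bases, tested members that were not called 611.5 and untested members 315.

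**Figure D1:**
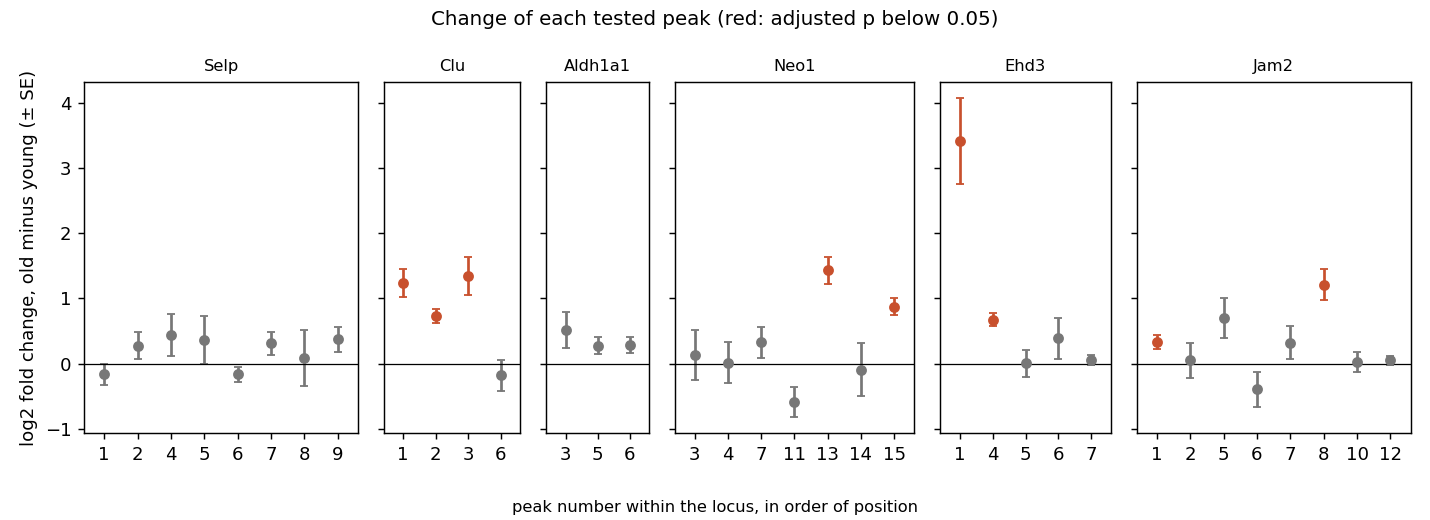
Log2 fold change of each of the 35 tested member peaks, old minus young, with its standard error on the y axis, and the number of the peak within its locus on the x axis. Red points are the 9 peaks with an adjusted p below 0.05, which lie at Clu, Neo1, Ehd3 and Jam2, and grey points are the other tested peaks.

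Summed over each locus, accessibility was higher in old HSCs at Clu, Neo1, Ehd3 and Aldh1a1. The Clu locus held 53.2, 60.9, 50.4 and 60.3 CPM in young replicates 1 to 4 and 95.0, 85.6, 105 and 74.0 CPM in the old ones. All old libraries lay above all young ones, and the sum was 1.59-fold higher (log2 fold change 0.67 ± 0.10 SE; edgeR adjusted p = 0.000144). The Neo1 locus held 51.2, 58.1, 51.8 and 44.9 CPM in young and 70.1, 93.0, 81.7 and 72.5 CPM in old libraries. Again the groups did not overlap, and the sum was 1.54-fold higher (0.62 ± 0.10; edgeR adjusted p = 0.000158). These fits were made together with the sums of all windows of 100000 bases, of which, with the 6 loci included, 17.2% were called higher and 12.3% lower. The share of those windows whose groups do not overlap was not computed. The lack of overlap at a summed locus, here and below, is therefore a description.

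The Ehd3 locus held 101, 115, 101 and 117 CPM in young libraries and 129, 142, 143 and 133 CPM in old ones. The groups did not overlap, with a 1.26-fold rise (0.33 ± 0.06; edgeR adjusted p = 0.000664). At the Aldh1a1 locus young libraries had 58.5, 57.5, 46.9 and 51.4 CPM and old ones 64.1, 65.2, 66.3 and 59.8 CPM. Here the groups came close without overlapping, and the sum was 1.19-fold higher (0.25 ± 0.08; edgeR adjusted p = 0.0291). The Aldh1a1 call was lost without old replicate 1, 2 or 3 or young replicate 3 or 4 (adjusted p from 0.0522 to 0.101), with DESeq2 (adjusted p = 0.0953), among windows with a mean count of at least 50 (0.0667) and with TMM computed on the window sums (0.0568).

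The Jam2 locus did not pass the test as a sum. It held 143, 141, 118 and 148 CPM in young and 158, 163, 148 and 150 CPM in old libraries, and the groups overlapped by a single young library, replicate 4 (log2 fold change 0.17 ± 0.06; edgeR adjusted p = 0.0508). The adjusted p was 0.0272 without young replicate 4, 0.0275 without old replicate 4 and 0.0443 without old replicate 3, and it ran from 0.0650 to 0.183 without each of the others. The Selp locus held 119, 127, 120 and 123 CPM in young and 107, 121, 118 and 137 CPM in old libraries. Its groups overlapped fully, with a log2 fold change of -0.015 ± 0.06 (edgeR adjusted p = 0.883). An exact permutation test of each sum (two-sided, 70 assignments) gave its lowest possible p of 0.0286 at Clu, Neo1, Ehd3 and Aldh1a1. The p-values were 0.0571 at Jam2 and 0.743 at Selp, all unadjusted for the number of loci.

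**Figure D2:**
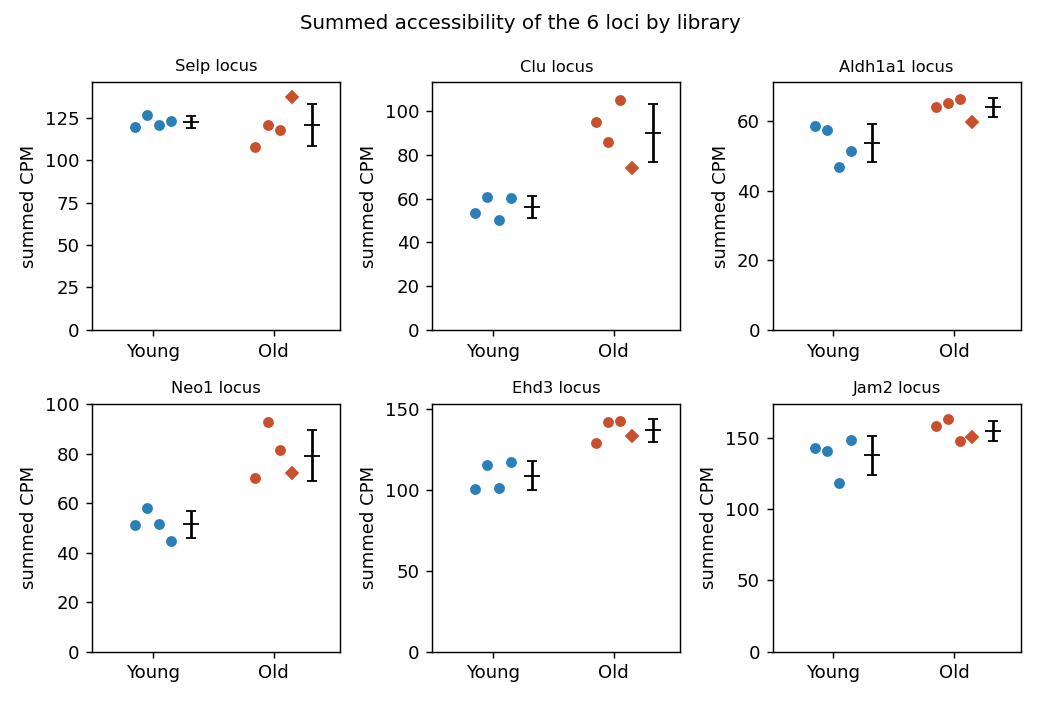
Summed CPM of each locus (y axis) in the 4 young (blue) and 4 old (red) libraries, with old replicate 4 as a diamond and the mean ± SD in black. The groups are apart at Clu, Neo1, Ehd3 and Aldh1a1 and overlap at Selp and Jam2. How often the groups are apart in other windows was not computed.

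Set per kilobase of peak, the level of accessibility differed between loci. In young libraries Ehd3 (23.1 ± 1.89 CPM per kb, SD, n = 4) and Selp (22.5 ± 0.606) were the most open and did not differ beyond their spread. Jam2 (17.8 ± 1.73) and Clu (17.4 ± 1.61) followed, likewise within their spread, then Aldh1a1 (10.9 ± 1.11) and Neo1 (6.57 ± 0.691). In old libraries Ehd3 (29.0 ± 1.45) and Clu (27.9 ± 4.09) were within their spread of each other. Selp (22.2 ± 2.27) and Jam2 (20.0 ± 0.912) were likewise within theirs, above Aldh1a1 (13.0 ± 0.579) and Neo1 (10.1 ± 1.33). In each locus 1 peak held 40.2% to 58.9% of the summed CPM.

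Clusterin's locus held the densest set of changes, with its first 3 peaks all higher in old HSCs. Clu peak 1 (chr14:66584311-66584649) had 3.96, 5.35, 6.36 and 5.28 CPM in young and 13.7, 12.3, 15.0 and 8.57 CPM in old libraries. Old replicate 4 was the nearest to the young group, and the rise was 2.35-fold (log2 fold change 1.23 ± 0.21 SE; edgeR adjusted p = 0.000410). Clu peak 2 (chr14:66587126-66587783), the strongest of the locus, had 32.5, 33.1, 28.5 and 34.7 CPM in young and 61.4, 50.6, 61.3 and 42.3 CPM in old libraries. It rose 1.66-fold (0.73 ± 0.11; edgeR adjusted p = 0.000190), with no overlap of the groups.

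Clu peak 3 (chr14:66589241-66590156) had 4.62, 11.7, 4.71 and 3.86 CPM in young and 13.7, 15.3, 20.9 and 14.4 CPM in old libraries. Young replicate 2 was far above the other young libraries but below all old ones. The rise was 2.54-fold (1.35 ± 0.29; edgeR adjusted p = 0.00532), and the log2 fold change was 1.86 without young replicate 2. The other 4 Clu peaks were weak. Clu peak 4 (chr14:66598278-66598606), named after its values were seen, had 2.64, 1.78, 4.71 and 5.28 CPM in young and 0.240, 0.397, 0.652 and 1.17 CPM in old libraries, from 67 and 12 counts. It went the other way, below young in all old libraries, and failed the count filter. With no filter it fell by 2.43 on the log2 scale (± 0.47; edgeR adjusted p = 0.000684). It was called lower in 6 of 16 alternatives: with no filter, without any 1 of the 4 old replicates and without young replicate 2 (adjusted p from 0.000105 to 0.00746 over the 6). The 3 called peaks together gained 38.7 CPM, more than the 33.7 CPM of the whole locus.

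Neogenin's locus is the longest window, 190 kb, and held 15 peaks, of which 7 were tested. The rises lay at its high-coordinate end. Neo1 peak 15 (chr9:58883310-58885145), the strongest there, had 18.5, 18.0, 18.9 and 18.9 CPM in young and 29.8, 41.8, 36.7 and 27.7 CPM in old libraries. The young libraries were nearly equal and all old ones lay above them, a 1.83-fold rise (log2 fold change 0.87 ± 0.13; edgeR adjusted p = 8.07e-05). Neo1 peak 13 (chr9:58862663-58863530) had 5.06, 8.33, 3.77 and 4.67 CPM in young and 13.4, 15.1, 15.4 and 15.6 CPM in old libraries. It rose 2.70-fold (1.43 ± 0.21; edgeR adjusted p = 7.28e-05), and old replicate 4 was here the highest library of all.

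Between these, Neo1 peak 14 is 345 bases from peak 13 and did not pass the test, with a log2 fold change of -0.09 ± 0.41. Neo1 peak 11 (chr9:58803227-58803851), named after its values were seen, was the one tested member with all old libraries below all young ones, at 5.93, 4.96, 7.54 and 7.11 CPM in young and 4.08, 4.16, 3.70 and 4.87 CPM in old libraries. Its log2 fold change of -0.59 ± 0.23 missed the threshold with all 8 libraries (edgeR adjusted p = 0.0752) and passed it without old replicate 4 (-0.66 ± 0.25; adjusted p = 0.0461) or young replicate 2 (-0.70 ± 0.24; adjusted p = 0.0444). The 2 called peaks made up 89.4% of the gain of the locus.

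Ehd3 changed at 2 of 7 peaks, of very different strength. Ehd3 peak 4 (chr17:74224408-74225719) had 29.9, 39.3, 28.3 and 38.0 CPM in young and 50.6, 54.1, 57.0 and 55.5 CPM in old libraries, with old replicate 4 among the highest. It rose 1.60-fold (log2 fold change 0.68 ± 0.10; edgeR adjusted p = 6.95e-05). The weak Ehd3 peak 1 (chr17:74202462-74202845) had 0 counts in 3 young libraries, 6 counts (1.19 CPM) in young replicate 2, and 12, 22, 23 and 12 counts in old libraries. Its log2 fold change was 3.41 ± 0.65 (edgeR adjusted p = 0.00153), a value that young replicate 2 decides. Without that library all young counts are 0, and the fitted value of 7.10 then depends on the prior count. Set against a floor of 3 counts over those 3 young libraries together, the old mean was 16.7-fold above that floor. Those libraries were picked for their counts of 0, so this is a description and no bound on the change between the groups. With young replicate 2 included, the fitted rise was 10.6-fold. Ehd3 peak 7 (chr17:74242463-74243705), the strongest of the locus, averaged 61.3 ± 2.80 CPM in the young group and 63.5 ± 5.10 in the old one (SD, n = 4 each) and did not pass the test (0.05 ± 0.07; edgeR adjusted p = 0.658).

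Jam2 changed at 2 of 12 peaks. Jam2 peak 8 (chr16:84810525-84810912) had 4.18, 4.56, 2.59 and 3.25 CPM in young and 6.72, 9.71, 7.61 and 9.74 CPM in old libraries. The groups did not overlap, and the rise was 2.31-fold (log2 fold change 1.21 ± 0.24; edgeR adjusted p = 0.00115). Jam2 peak 1 (chr16:84774147-84775529) had 23.5, 24.2, 25.2 and 29.4 CPM in young and 32.4, 36.1, 33.0 and 27.7 CPM in old libraries, so that old replicate 4 lay below young replicate 4. This smallest of the 9 calls (0.33 ± 0.11; edgeR adjusted p = 0.0340) was kept in 7 of 16 alternatives; it was lost without any 1 of old replicates 1 to 3 or young replicates 1 to 3 (adjusted p from 0.0654 to 0.121), with loess offsets (0.0622), with DESeq2 (0.0999) and among peaks with a mean count of at least 50 (0.0677). Without old replicate 4 the log2 fold change of Jam2 peak 1 was 0.41 ± 0.11 (edgeR adjusted p = 0.0040). Jam2 peak 12 (chr16:84834670-84836632), the strongest member of all loci at 70.1 CPM on average, had 59.4 to 75.9 CPM in young and 68.3 to 74.4 CPM in old libraries (0.05 ± 0.07; edgeR adjusted p = 0.698).

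**Figure D3:**
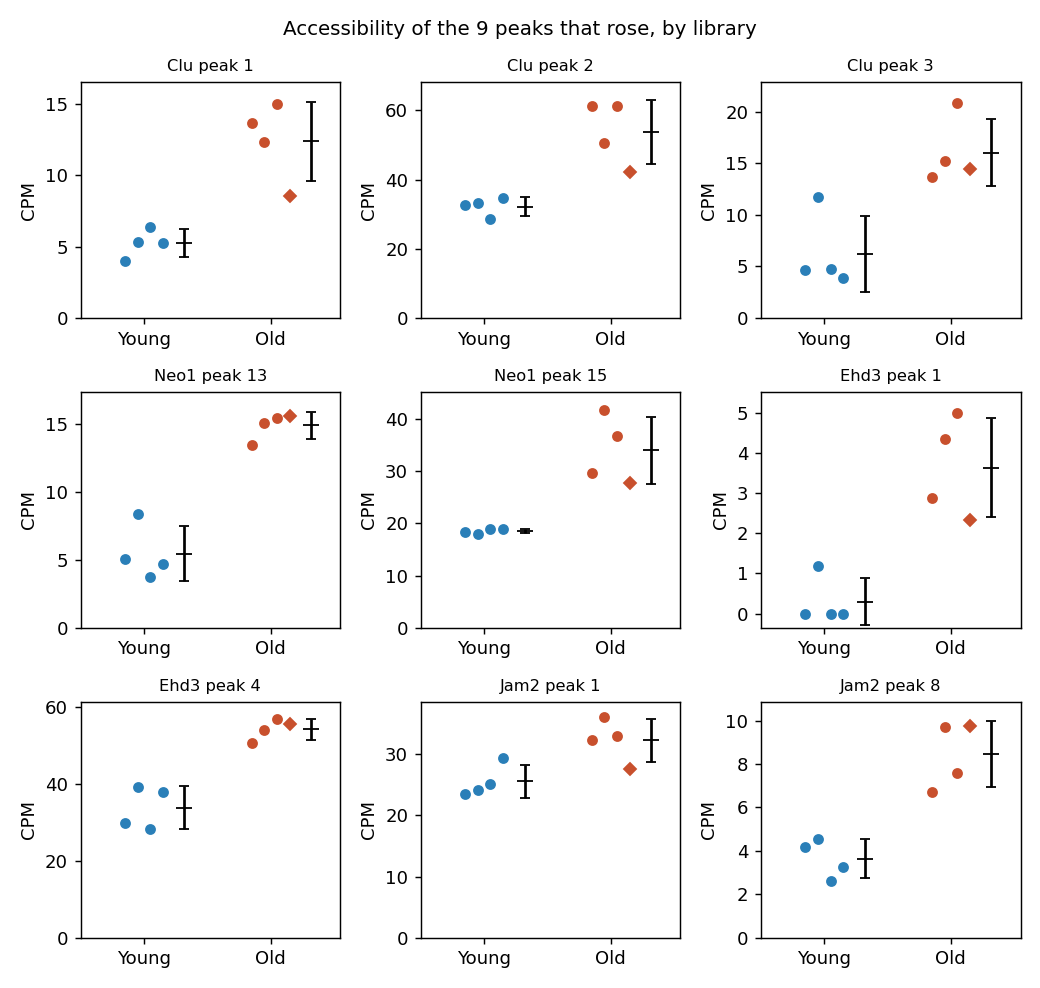
CPM (y axis) of the 9 member peaks that rose, in the 4 young (blue) and 4 old (red) libraries, with old replicate 4 as a diamond and the mean ± SD in black. The groups do not overlap at 8 of the 9, and at Jam2 peak 1 old replicate 4 lies below the highest young library. The 9 were picked by p-values from these same values, so the lack of overlap is a description. Across all tested peaks, the 4 old libraries lay above the 4 young ones at 10.5%.

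P-selectin's locus was open in both groups and showed no called peak. Selp peak 6 (chr1:166065277-166066448), which held 56.2% of the summed CPM of the locus, had 68.1, 73.4, 70.7 and 77.6 CPM in young and 54.0, 59.3, 60.6 and 83.4 CPM in old libraries. Old replicates 1 to 3 lay below all young libraries and old replicate 4 above all of them. The log2 fold change was -0.17 ± 0.11 with all libraries (edgeR adjusted p = 0.322) and -0.31 ± 0.07 without old replicate 4 (adjusted p = 0.00187), so that this library decided the call. Selp peak 9 (chr1:166081352-166082303) had the smallest p of the locus, with 11.2, 12.3, 8.48 and 7.51 CPM in young and 11.8, 15.7, 12.6 and 11.1 CPM in old libraries (0.37 ± 0.19; edgeR adjusted p = 0.168). Of the 8 tested Selp peaks, Selp peak 2 alone had all old libraries above all young ones, at 5.65 to 7.44 against 5.06 to 5.55 CPM, without passing the test (0.27 ± 0.21; edgeR adjusted p = 0.389).

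At Aldh1a1 no single peak was called, though the sum was. Aldh1a1 peak 5 (chr19:20675373-20676950), the strongest, had 27.9, 28.2, 17.9 and 22.3 CPM in young and 28.3, 30.5, 27.2 and 30.8 CPM in old libraries, where young replicate 3 was the low one (log2 fold change 0.27 ± 0.13; edgeR adjusted p = 0.129). Aldh1a1 peak 6 (chr19:20688341-20689352) had 23.5, 21.8, 19.6 and 22.1 CPM in young and 30.0, 27.4, 27.4 and 22.0 CPM in old libraries (0.29 ± 0.12; edgeR adjusted p = 0.0888). Old replicate 4 was the old library that overlapped the young range, and without it the log2 fold change was 0.38 ± 0.12 (adjusted p = 0.0119).

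In these libraries the rises at Clu, Neo1 and Aldh1a1 exceeded the changes of their surroundings, and at Ehd3 no such difference was found. Each locus sum was set against the sum of the peaks within 250000 bases outside its window, as a log2 ratio per library that needs no library scaling. Relative to its flanks, Clu was 0.63 higher in old than in young libraries on the log2 scale, Neo1 0.47 and Aldh1a1 0.27, each with all old libraries above all young ones (p = 0.0286 by two-sided exact permutation, the lowest that 4 against 4 allow). The permutation p-values against flanks were not adjusted for the number of loci tested. The share of other windows that separate from their own flanks was not computed, so the differences are a description. For Neo1 the p was 0.0571 without young replicate 4. Ehd3 differed from its flanks by 0.0083 (two-sided exact permutation p = 0.943): the flanks held 143 ± 7.19 CPM in the young group and 180 ± 14.1 in the old one (SD, n = 4 each), with 4 of 17 tested flanking peaks called higher and 2 lower. Against flanks of 500000 bases the Ehd3 difference was 0.20 (two-sided exact permutation p = 0.0571).

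Jam2 was 0.23 higher relative to its flanks, short of the threshold (two-sided exact permutation p = 0.114), and passed it without young replicate 4 (0.32, exact permutation p = 0.0286). Selp differed by 0.07 (two-sided exact permutation p = 0.343), and by 0.13 without old replicate 1 (exact permutation p = 0.0286). Around Clu, 4 of 32 tested flanking peaks were higher and 3 lower. Around Neo1 2 of 11 were higher and 0 lower, around Aldh1a1 2 of 15 and 2, around Jam2 2 of 15 and 0, and around Selp 0 of 18 and 0.

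**Figure D4:**
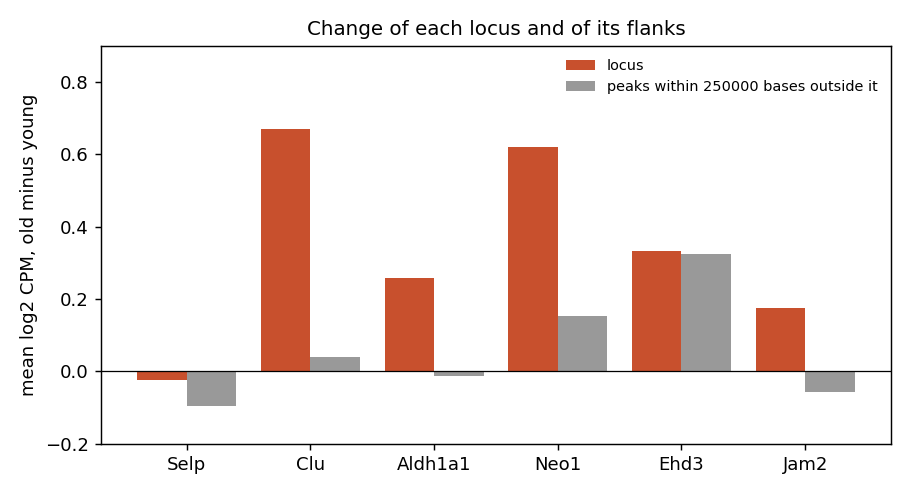
Mean log2 CPM in old minus young libraries (y axis, n = 4 each) of each summed locus (red bars) and of the peaks within 250000 bases outside its window (grey bars). The locus bars stand 0.63, 0.47 and 0.27 above the flank bars at Clu, Neo1 and Aldh1a1, while the Ehd3 bars differ by 0.0083.

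The window of 100000 bases outside the loci whose pattern over the 8 libraries was closest to each locus was found by the root mean square difference of centred log2 CPM among 16752 windows. It lay on chromosome 9 from 30700001 to 30800000 for Clu (difference 0.060, log2 fold change 0.70 ± 0.11) and on chromosome 3 from 62100001 to 62200000 for Neo1 (difference 0.081, log2 fold change 0.70 ± 0.12). For Ehd3 it lay on chromosome 11 from 98300001 to 98400000 (difference 0.034), for Aldh1a1 on chromosome 4 from 133700001 to 133800000 (difference 0.040), for Jam2 on chromosome 13 from 52000001 to 52100000 (difference 0.043) and for Selp on chromosome 2 from 172800001 to 172900000 (difference 0.033). These windows were chosen for their likeness, so their changes are a description.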

How the data were processed

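Omni-ATAC libraries were made with a Nextera kit, per the labels' protocols. The authors deposited raw read counts, whole numbers, for 8 libraries over 1 shared peak set. MACS2, Bowtie2, Picard, SAMtools, FastQC, Trim Galore and build mm9 appear per the submitters' processing notes. Peak merging, read counting and any shift of read ends were not given in the sources used here. Peaks called on the compared libraries can favour sites open in either group.

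Old was compared with young by edgeR 4.0.16 (R 4.3.3; TMM, filterByExpr with minimum count 10, robust glmQLFit, glmQLFTest, group alone), which tested 73164 peaks holding 94.2% of counts. Sums per locus were fitted with 16764 windows of 100000 bases. The fit was tested on simulated data, with 50 peaks changed per fold size. Of those tested, it called 15.2% at a 1.5-fold change, 51.1% at 2-fold and 97.8% at 4-fold. Far fewer peaks were changed there than were called here, so these rates need not hold for the real counts. Alternatives were other scalings, filters, DESeq2 1.42.0, limma 3.58.1 voom, a replicate block and each library left out; TMM on window sums was added after seeing the data. Members and lists were chosen with earlier results of these data known. Named peaks were, per locus, the strongest, up to 5 called per direction, or the smallest p where none was called. Other ageing genes and gate markers were not analysed here, for want of mm9 positions.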

Additional observations from a re-analysis of the deposited data

Results flagged for a closer look

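Among 54 groups of 4 libraries screened over the loci, the named peaks and the flank ratios, 4 had 1 library far from the other 3, where chance gives about 1 in 20, or 2.7. Young replicate 2 had 11.7 CPM at Clu peak 3 against 3.86 to 4.71 in the other young libraries, and 1.19 CPM at Ehd3 peak 1 against 0 in the others. The log2 ratio of locus to flanks was -0.92 in young replicate 1 at Selp, against -0.83 to -0.81 in the other young libraries. At Neo1 it was -1.36 in young replicate 4, against -1.21 to -1.19.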

How the results depend on the processing

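The count of 9 higher peaks stayed at 8 to 10 in every alternative except a mean count of at least 50, where 14 member peaks were tested and 4 called. Over all peaks the higher calls ran from 4993 of 73164 tested (DESeq2) to 10988 of 75446 (without old replicate 4). With a mean count of at least 50 they were 2377 of 23905. The count of lower peaks was 1 with no count filter and 0 to 3 with each library left out in turn, against 0. Over all peaks the lower calls were 9753 of 126871 with no filter. They ran from 5171 of 74724 (without old replicate 2) to 11693 of 75446 (without old replicate 4) with each library left out. Clu peak 2, Clu peak 3, Neo1 peak 15 and Ehd3 peak 4 were called in all 16 alternatives, and Clu peak 1, Neo1 peak 13, Ehd3 peak 1 and Jam2 peak 8 in 15, all but the mean count of at least 50, where they were not tested. With no filter Neo1 peak 9 was also called higher.

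With each library left out in turn, the log2 fold change of the summed locus ran from 0.60 to 0.76 at Clu, 0.55 to 0.69 at Neo1, 0.29 to 0.37 at Ehd3, 0.19 to 0.29 at Aldh1a1, 0.10 to 0.21 at Jam2 and -0.074 to 0.048 at Selp. Aldh1a1 lost its call at 0.20 with a mean count of at least 50, at 0.22 with DESeq2 and at 0.21 with TMM on window sums. Jam2 gained one at 0.20 with no filter. Selp turned to 0.019 with no filter. Of windows, 2877 were called higher and 2055 lower (58.3% higher); the share was 49.5% with TMM on window sums, 39.8% with a mean count of at least 50 and 68.6% with no filter. Ehd3 peak 7 turned to -0.014 and Jam2 peak 12 to -0.023 with loess offsets, and Jam2 peak 12 to -0.015 without young replicate 3, all uncalled.

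Relative to flanks, the differences with each library left out ran from 0.56 to 0.71 at Clu, 0.37 to 0.53 at Neo1, 0.21 to 0.31 at Aldh1a1, 0.17 to 0.32 at Jam2, 0.0045 to 0.13 at Selp and -0.035 to 0.072 at Ehd3. With flanks of 500000 bases Selp turned to -0.0045. Apart from what the choice of libraries or features itself removes, the cause of these moves was not tested.

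A replicate block left 9 peaks higher and 0 lower and moved the summed Jam2 locus past the threshold (0.17; edgeR adjusted p = 0.0190). Same-numbered libraries deviated together by r = -0.01 to 0.18, so the numbers were not taken as pairs, and 2 of 4 old libraries correlated best with the young library of their own number. Weak peaks limit what can be seen: 23 members went untested, and 9 members had a count of 0 in some library.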
